A study of Mus musculus with 6 samples.

Results

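Transcription factors of the mesenchymal transition, together with the Meis homeobox factors, were followed in sorted fetal liver mesenchyme at embryonic day 18 (E18) and embryonic day 16 (E16). The set holds 9 genes chosen by name, Snai2, Zeb1, Zeb2, Twist1, Twist2, Prrx1, Tcf4, Meis1 and Meis2, out of 54532 genes in the deposited table, and each was found there under its Ensembl identifier. The 3 E18 and 3 E16 libraries came from livers of CD-1 mice of genotype Sm22-Cre/ROSA26RYFP, dissociated with collagenase IV and Dispase and sorted for eYFP. In these mice Cre is driven by the promoter of Sm22 (Tagln), a smooth muscle gene, and eYFP then marks cells that have had Cre and their progeny, so the sort follows Cre history and not a cell type. All 6 libraries share strain, genotype and sort, and the days differ in age alone as far as the labels say. The libraries carry the letters A, B and C within a day, with no word on litters or pooling. A p-value here therefore weighs a difference against the scatter of these libraries, part of which may be technical.

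These genes encode proteins that hold or impose a mesenchymal state. Snai2, Zeb1 and Zeb2 are zinc-finger repressors that bind E-box sequences in promoters of epithelial genes such as Cdh1 (E-cadherin). Twist1, Twist2 and Tcf4 (the E protein E2-2, not the Wnt effector Tcf7l2) are basic helix-loop-helix proteins that bind E-boxes as dimers. Prrx1 is a paired-type homeobox factor of embryonic connective tissue. Meis1 and Meis2 are homeobox factors of the TALE class that bind DNA with Pbx and Hox partners. In liver, such genes are known from stellate cells, portal fibroblasts and mesothelium. Zeb2, Tcf4 and Meis1 are also known from blood cells.

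Promoters are shown for Meis1 and Prrx1, the pair with the largest log2 fold changes of TPM + 1 among the tested members, for Twist1, whose values also separated the days, and for Snai1, a relative of Snai2 that did so too. Sequences are from RefSeq on GRCm38.p6, the assembly of mm10. Each begins 250 bases before the RefSeq start of the gene and stops at that start or at the first base of an annotated exon. They lie at chr11:19018986-19019219 (minus strand) for Meis1, chr1:163313711-163313900 (minus strand) for Prrx1, chr12:33957421-33957670 (plus strand) for Twist1 and chr2:167537945-167538194 (plus strand) for Snai1. Capitals mark an E-box.
Meis1: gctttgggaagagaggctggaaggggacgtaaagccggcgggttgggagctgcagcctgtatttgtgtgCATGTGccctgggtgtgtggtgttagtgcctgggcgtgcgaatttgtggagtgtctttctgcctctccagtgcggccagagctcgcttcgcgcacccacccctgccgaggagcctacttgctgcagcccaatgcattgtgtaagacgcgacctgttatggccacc
Prrx1: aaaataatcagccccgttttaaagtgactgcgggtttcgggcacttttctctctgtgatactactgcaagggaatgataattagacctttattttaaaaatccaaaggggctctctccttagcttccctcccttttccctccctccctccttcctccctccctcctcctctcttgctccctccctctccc
Twist1: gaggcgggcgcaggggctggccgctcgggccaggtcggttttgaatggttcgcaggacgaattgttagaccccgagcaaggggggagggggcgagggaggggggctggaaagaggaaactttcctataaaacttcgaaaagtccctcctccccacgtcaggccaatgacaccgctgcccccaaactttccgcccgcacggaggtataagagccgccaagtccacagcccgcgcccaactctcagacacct
Snai1: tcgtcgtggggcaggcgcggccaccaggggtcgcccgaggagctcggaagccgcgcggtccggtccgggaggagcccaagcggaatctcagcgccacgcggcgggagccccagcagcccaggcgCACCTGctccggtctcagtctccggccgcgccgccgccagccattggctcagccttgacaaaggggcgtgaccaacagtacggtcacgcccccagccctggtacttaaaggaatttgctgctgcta

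Promoter windows of 250 bases were taken from the RefSeq table for 6 of the 9 genes, 9 windows in all, since Zeb2 has 4 starts. The Zeb2 windows at 45113280 to 45113529 and at 45113254 to 45113503 share most of their bases. Counts over the 9 windows are thus not counts of separate sequences and are a description. Member windows on chromosome 18, where Zeb1 and Tcf4 lie, were left out of the search, and Snai2 had none in that table. The shares over all promoters were not restricted in this way. The letters CANNTG, the general E-box, were searched on both strands and were present in 1 of the 9 windows, that of Meis1, and in 66.2% of 32851 promoter windows of the same length. The E-box of Meis1 reads CATGTG and begins 181 bases before the start. The letters CAGGTG or CACCTG, the form preferred by Snail and Zeb factors and a subset of CANNTG, were in none of the 9 windows and in 17.2% of all. That of Snai1 holds CACCTG from 126 bases before the start. The letters TGACAG, a Meis core, were in 1 window, that of Twist2, and in 15.9% of all, and TGATTGAC, a joint Pbx and Meis motif, in none and in 0.691% of all. No match says only that these letters are not in these windows.

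Levels are given in TPM (a transcript abundance scaled by gene length and to the same total in each library), and differences as log2 fold changes of TPM + 1, E18 minus E16, with a standard error (SE) and n = 3 libraries a day. All 9 genes had a higher mean at E18, and in 7 of them each E18 library lay above each E16 library. Such separation was seen in 15.0% of 29216 genes detected in any library and in 18.4% of genes tested. The opposite separation was seen in 0 members, against 5.74% and 8.05% of those genes. By limma none of the 7 members that could be tested passed at adjusted p under 0.05 over 17824 genes, a threshold that 3.08% of genes passed as higher at E18, 0.387% as lower and 3.47% in either direction. All 7 had a positive log2 fold change, as did 57.0% of genes tested, but that of Tcf4 turned negative with quantile normalization (-0.12), array weights (-0.04) or a hepatocyte covariate (-0.02). Unadjusted p lay under 0.05 for 6 of the 7, against 20.9% of all genes. Prrx1 and Meis2 entered the test through their E18 values alone, so counts over the 7 are a description. Twist1 and Twist2 were too low to be tested. In bulk RNA, more cells of a type and more RNA per cell cannot be told apart.

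**Figure D1:**
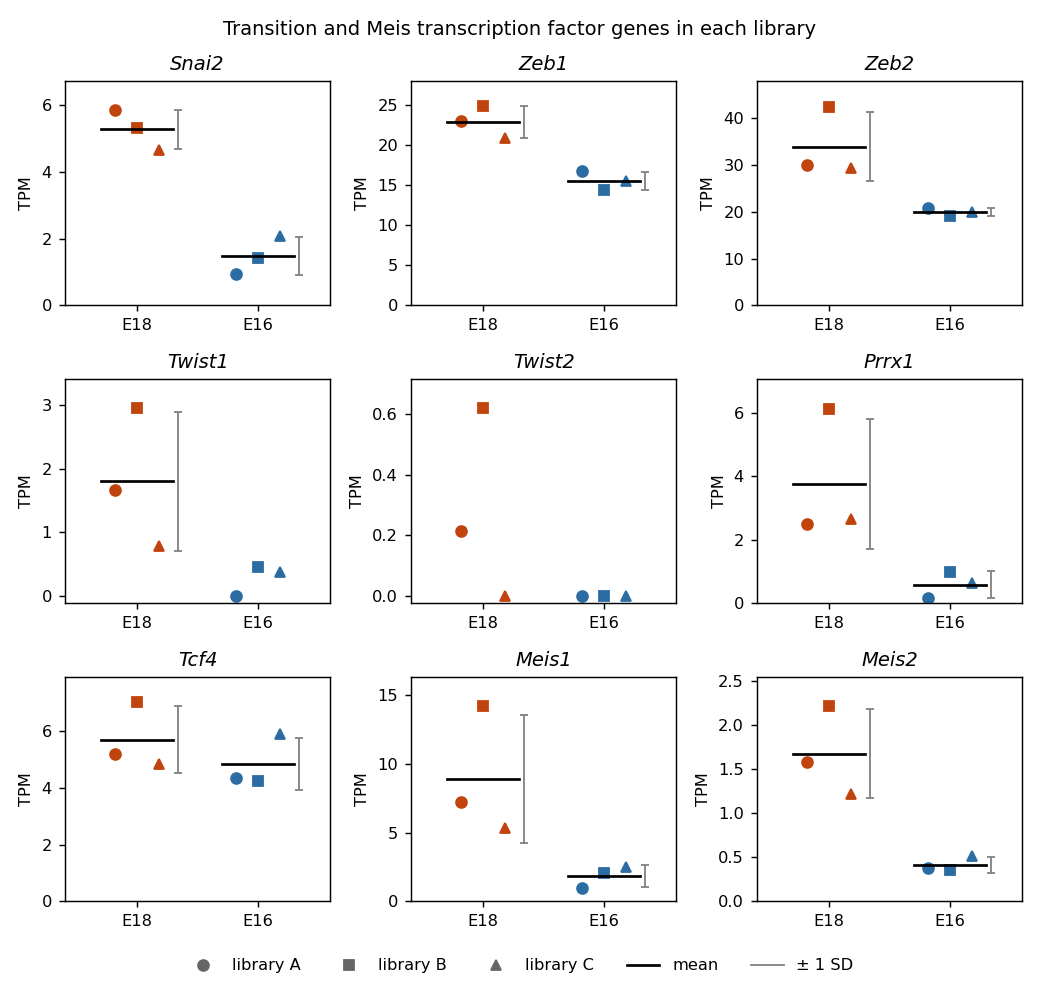
TPM of each of the 9 genes in every library, with E18 left of E16, symbols for libraries A, B and C, black lines for the mean of a day and grey bars for 1 SD (n = 3); no mean is drawn where a library is listed at 0. Days do not overlap for 7 genes, the exceptions being Tcf4 and Twist2, and library B is the highest E18 library for 8 of the 9.

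Among the zinc-finger repressors, Zeb2 (ENSMUSG00000026872, chromosome 2, 44983632 to 45117395, minus strand, mm10) was the most abundant member on both days. It stood at 29.97, 42.4 and 29.3 TPM in the E18 libraries A, B and C, against 20.9, 19.2 and 19.95 TPM in the E16 libraries A, B and C. The days did not overlap, and E18 replicate B stood above the other E18 libraries. The log2 fold change was 0.71 ± 0.18 (SE; 95% interval 0.29 to 1.14; limma adjusted p = 0.0759). Zeb2os, an antisense gene that covers 3.27% of Zeb2 exon length, stayed between 0.378 and 1.21 TPM.

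Zeb1 (ENSMUSG00000024238, chromosome 18, 5591860 to 5775467, plus strand) followed Zeb2 on both days. It stood at 22.95, 24.85 and 20.8 TPM at E18, against 16.7, 14.4 and 15.5 TPM at E16, in replicates A, B and C. Its days did not overlap, and its spread within a day was narrow. On the log2 scale the difference was 0.53 ± 0.16 (95% interval 0.16 to 0.90; limma adjusted p = 0.11). Zeb2 exceeded Zeb1 by 1.31 to 1.71 times at E18, against 1.25 to 1.33 times at E16, so the order of the pair was the same in every library.

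Snai2 (ENSMUSG00000022676, chromosome 16, 14705852 to 14709385, plus strand) was low at E16. It stood at 5.83, 5.30 and 4.66 TPM in the E18 libraries A, B and C, against 0.942, 1.415 and 2.06 TPM in the E16 libraries A, B and C. It was the member for which E18 replicate B was not the highest library of its day, and its E18 values lay close together. On the log2 scale the difference was 1.36 ± 0.31 (95% interval 0.64 to 2.08; limma adjusted p = 0.0579). These values rest on 49 to 52 reads at E18 and 13 to 27 at E16.

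Of the basic helix-loop-helix genes, Tcf4 (ENSMUSG00000053477, chromosome 18, 69343356 to 69689079, plus strand) did not separate the days. It stood at 5.21, 7.05 and 4.85 TPM at E18, against 4.36, 4.27 and 5.93 TPM at E16, in replicates A, B and C. E16 replicate C lay above 2 E18 libraries. The log2 fold change was 0.19 ± 0.27 (limma adjusted p = 0.757), and the 95% interval from -0.45 to 0.84 does not exclude a moderate change either way.

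Twist1 (ENSMUSG00000035799, chromosome 12, 33957671 to 33959829, plus strand), which controls cranial and limb mesenchyme, was scarce. It stood at 1.67, 2.96 and 0.778 TPM in the E18 libraries A, B and C, from 12, 22 and 7 reads. At E16 it was listed at 0 in replicate A and stood at 0.462 and 0.379 TPM in replicates B and C, from 5 and 4 reads. All E18 values lay above all E16 values, with a gap of 0.316 TPM between the nearest libraries. Its paralogue Twist2 (ENSMUSG00000007805, chromosome 1, 91801461 to 91848028, plus strand) was detected in 2 E18 libraries, at 0.214 and 0.620 TPM in replicates A and B from 3 and 9 reads, and was listed at 0 in E18 replicate C and in all E16 libraries. An antisense gene, Gm29100, covers 46.5% of Twist2 exon length, and the strand setting of the counting is not given, so these few reads are uncertain in origin.

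Prrx1 (ENSMUSG00000026586, chromosome 1, 163245119 to 163313710, minus strand) stood at 2.50, 6.13 and 2.67 TPM in the E18 libraries A, B and C, against 0.159, 0.993 and 0.628 TPM in the E16 libraries A, B and C. Days did not overlap, and E18 replicate B was 2.37 times the mean of the other E18 libraries. On the log2 scale the difference was 1.53 ± 0.41 (95% interval 0.57 to 2.50; limma adjusted p = 0.0841), and it ran from 0.63 at a pseudocount of 5 to 2.85 with voom. Reads numbered 122 to 310 at E18 and 12 to 73 at E16.

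Meis1 (ENSMUSG00000020160, chromosome 11, 18879817 to 19018985, minus strand) had the largest log2 fold change of TPM + 1 among the tested members, but Prrx1 exceeded it with a pseudocount of 0.1 (2.59 against 2.20), with voom (2.85 against 2.23) and with the hepatocyte covariate (2.34 against 1.95). It stood at 7.23, 14.2 and 5.31 TPM in the E18 libraries A, B and C, against 0.946, 2.04 and 2.51 TPM in the E16 libraries A, B and C. The days did not overlap, and E18 replicate B was 2.26 times the mean of the other E18 libraries. The log2 fold change was 1.75 ± 0.42 (95% interval 0.76 to 2.74; limma adjusted p = 0.0671), and without E18 replicate B it was 1.39 (limma adjusted p = 0.163). A gene model on the same strand, Gm37818, covers 9.77% of Meis1 exon length and the antisense Gm16140 covers 8.51%. Gm37818 was highest in E18 replicate B, at 4.49 TPM, where Meis1 was highest too, and stood at 0.0924 to 0.731 TPM at E16. Gm16140 was highest in E18 replicate C, at 3.88 TPM, where Meis1 was lowest among the E18 libraries. The part of these overlapping genes in the level of Meis1 was not tested.

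Meis2 (ENSMUSG00000027210, chromosome 2, 115863064 to 116065839, minus strand) was less abundant. It stood at 1.58, 2.22 and 1.22 TPM in the E18 libraries A, B and C, against 0.377, 0.350 and 0.513 TPM in the E16 libraries A, B and C. The days did not overlap. On the log2 scale the difference was 0.90 ± 0.31 (95% interval 0.18 to 1.62; limma adjusted p = 0.149). Meis1 exceeded Meis2 in every library, by 4.36 to 6.40 times at E18, against 2.51 to 5.84 times at E16.

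**Figure D2:**
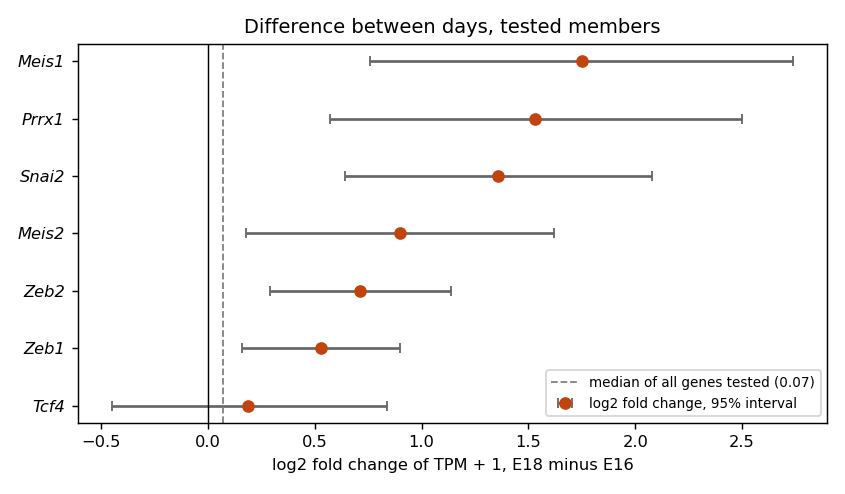
Log2 fold change of TPM + 1, E18 minus E16, for the 7 tested members (points) with 95% intervals from limma (bars); the dashed line is the median of all genes tested, 0.07. Point estimates run from 0.19 for Tcf4 to 1.75 for Meis1, and the interval of Tcf4 includes 0.

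By mean TPM the order at E18 was Zeb2, Zeb1, Meis1, Tcf4, Snai2, Prrx1, Twist1, Meis2 and Twist2. At E16 it was Zeb2, Zeb1, Tcf4, Meis1, Snai2, Prrx1, Meis2, Twist1 and Twist2. Neighbours whose ranges did not overlap were Zeb2 and Zeb1, Zeb1 and Meis1, and Meis2 and Twist2 at E18, and Zeb2 and Zeb1, Zeb1 and Tcf4, and Tcf4 and Meis1 at E16. Every other pair of neighbours overlapped in range. Zeb2 lay at the 78.1 percentile of tested genes at E18 and the 67.5 percentile at E16, and Meis1 at the 45.5 and 17.8 percentiles on those days.

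Ratios between members show whether they differed between days in equal measure. The ratio of Meis1 to Zeb2 TPM was 0.241, 0.334 and 0.181 in the E18 libraries A, B and C, against 0.0452, 0.107 and 0.126 in the E16 libraries A, B and C. The ratio of Meis1 to Tcf4 was 1.39, 2.01 and 1.09 at E18, against 0.217, 0.479 and 0.423 at E16. By TPM, Tcf4 was thus the higher of the pair in each E16 library and Meis1 in each E18 library. This order rests on scaling by exon length, 10532 bases for Meis1 and 27382 for Tcf4. In recovered reads Tcf4 was the higher at E18 too, at 630, 882 and 734 against 336, 683 and 309 in libraries A, B and C. On the log2 scale the ratio was higher at E18 by 1.53 for Meis1 to Zeb2, by 1.71 for Meis1 to Zeb1 and by 2.04 for Meis1 to Tcf4. It was higher by 1.16 for Snai2 to Zeb2 and by 2.16 for Prrx1 to Zeb2. Each of these 5 ratios separated the days, with a 2-sided exact permutation p = 0.1, the smallest that 3 against 3 libraries allow, and 0.12 adjusted over the 6 ratios compared. The ratio of Zeb2 to Zeb1 overlapped (exact permutation p = 0.2). These ratios share members and are only some of the pairs that could be formed. The adjustment does not allow for that choice, and Prrx1 reached the filter through its E18 values alone. They are therefore a description of the fold changes above and not further evidence.

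Levels were then set against markers of mesenchymal cells, a choice made after the values were seen. The 31 markers of hepatic stellate cells, portal fibroblasts and smooth muscle summed to 809, 1581 and 630 TPM in the E18 libraries A, B and C, against 80.2, 113 and 198 TPM in the E16 libraries A, B and C, and were highest in the same library, E18 replicate B, as 8 of the 9 members. At E18 the largest were Eln, Acta2 and Mfap4, averaging 170, 159 and 121 TPM, against 8.02, 19.2 and 12.0 TPM at E16. The sum, and quotients taken over it, thus rest in good part on these genes. The mean of the sum at E18 was 7.7 times that at E16. A gene that was unchanged or rose by less therefore tends to lie lower at E18 on this scale. Called as higher at E18 were 4 of 12 stellate cell, 7 of 9 tested portal fibroblast and 8 of 10 smooth muscle markers, and 0 as lower. Over all genes tested 3.08% were called higher and 0.387% lower. Des counts in both the stellate cell and the smooth muscle list, and Lmod1 entered the test through its E18 values alone. Per 100 TPM of these markers, Meis1 stood at 0.894, 0.898 and 0.843 TPM in the E18 libraries, against 1.18, 1.80 and 1.265 TPM in the E16 libraries. Within E18 the Meis1 quotient hardly varied, whereas the level of Meis1 itself differed widely between these libraries, and all its E18 quotients lay below all its E16 quotients. Other members differed in this. The quotient of Snai2 was 0.721, 0.336 and 0.740 in the E18 libraries A, B and C, though its TPM lay close together. That of Zeb1 was 2.84, 1.57 and 3.31 in those libraries, also with TPM close together. Zeb2 stood at 3.71, 2.69 and 4.65 TPM per 100 TPM of markers at E18, against 26.1, 16.9 and 10.1 at E16. Among the members on this scale Zeb1, Zeb2 and Tcf4 had the lowest E18 to E16 quotients of means of 0.187, 0.208 and 0.153, against 0.620 for Meis1, 0.519 for Snai2 and 0.510 for Meis2. These largely restate the ratios of mean TPM, E18 over E16, which were 1.47, 1.69 and 1.175 for Zeb1, Zeb2 and Tcf4. None of these ratios was below 1, so lower quotients for these genes do not mean lower TPM. Prrx1, Twist1 and Twist2 overlapped between days on this scale. What part the mesenchymal cells present had in the members' levels was not tested.

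**Figure D3:**
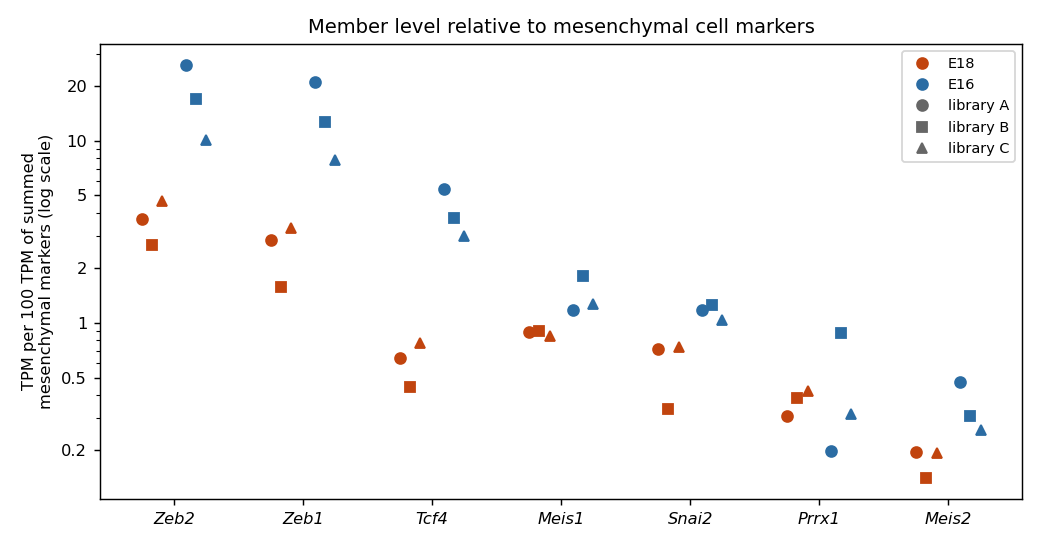
TPM of the 7 tested members per 100 TPM of summed mesenchymal markers, on a log axis, in each E18 (left of each pair) and E16 library. Zeb2, Zeb1 and Tcf4 lie lower in every E18 library than in any E16 library by the widest margin, while Prrx1 overlaps. The mean marker sum was itself 7.7 times as high at E18, so genes that rose by less tend to lie lower.

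The sort is labelled mesenchyme, and markers of other cell types were present in it. Tagln (Sm22), whose promoter drives Cre, stood at 3.19, 2.86 and 3.37 TPM in the E18 libraries A, B and C, against 1.40, 0.606 and 1.17 TPM in the E16 libraries A, B and C. The days did not overlap, and erythroid markers exceeded the mesenchymal ones in sum in every library. Summed hepatocyte markers ran from 391 to 1023 TPM at E18, against 2237 to 9290 TPM at E16, and summed erythroid markers from 11609 to 19677 TPM at E18, against 6415 to 8255 TPM at E16. Megakaryocyte markers, of which Gp1bb was listed at 0 throughout, summed to 46.4 to 134.5 TPM at E18, against 23.8 to 73.1 TPM at E16. Of 9 macrophage markers 5 were listed at 0 in all libraries, namely Adgre1, C1qa, C1qb, C1qc and Clec4f, and the list reached 37.15 to 112 TPM at E18 and 41.9 to 57.1 TPM at E16 through Cd68. Ptprc, the pan-leukocyte marker, did not exceed 0.143 TPM, and the pan-leukocyte list summed to 6.45 to 16.25 TPM at E18, against 5.06 to 8.76 TPM at E16. Neutrophil markers summed to 11.2 to 24.9 TPM at E18, against 1.63 to 3.56 TPM at E16, and B lymphoid and dendritic markers to 1.57 to 8.81 TPM at E18, against 0.374 to 2.13 TPM at E16. Endothelial markers summed to 18.0 to 25.15 TPM at E18, against 27.6 to 41.0 TPM at E16, mostly from Egfl7, cholangiocyte markers to 21.3 to 37.4 TPM at E18, against 10.4 to 21.7 TPM at E16, and Schwann cell and neural markers to 5.80 to 15.4 TPM at E18, against 4.802 to 6.62 TPM at E16. Mesothelial markers summed to 202 to 269 TPM at E18, against 155 to 199 TPM at E16, mostly from Podxl, which overlapped between days. The other 7 mesothelial markers separated the days with E18 higher, 4 of the 8 were called higher (Msln, Lrrn4, Krt19 and Upk3b), and the list had a median of 1.66 on the log2 scale. Over all genes tested 18.4% separated with E18 higher, 3.08% were called higher and the median was 0.07. Blood stem and progenitor markers, mainly Kit, summed to 99.6 to 154 TPM at E18, against 107 to 158 TPM at E16. The part of these cells in the members' levels was not tested.

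Of the closest relatives and corepressors, 0 of 7 tested genes passed. Snai1, the Snail family member best known from gastrulation, stood at 3.49, 8.10 and 1.56 TPM in the E18 libraries A, B and C. At E16 it stood at 0.181 TPM in replicate A and was listed at 0 in B and C, and the difference did not pass (limma adjusted p = 0.0582). Snai3 and Prrx2 were under the filter, at up to 0.667 and 1.004 TPM. The corepressor Ctbp1 averaged 212 ± 12.6 TPM at E18 and 205 ± 36.4 TPM at E16 (SD, n = 3 each), with overlapping days, and Hdac1, Hdac2, Rcor1 and Kdm1a overlapped too.

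Among dimer partners of the basic helix-loop-helix factors, 1 of 5 tested genes rose, against 3.08% of all genes tested. This was Id3, an Id protein that binds E proteins and keeps them off DNA. It stood at 18.0, 40.1 and 12.7 TPM in the E18 libraries A, B and C, against 1.23, 1.01 and 2.85 TPM in the E16 libraries A, B and C, and the days did not overlap (3.09 ± 0.47 on the log2 scale; limma adjusted p = 0.0325). Id1 averaged 29.25 ± 8.46 TPM at E18 and 15.0 ± 0.287 TPM at E16, and Id2 10.2 ± 5.19 and 2.83 ± 0.973 TPM on those days, neither passing (limma adjusted p = 0.0693 and 0.0915). The E protein genes Tcf3 and Tcf12 overlapped between days, at 253 ± 47.4 and 32.3 ± 1.95 TPM at E18, against 299 ± 46.9 and 28.95 ± 4.31 TPM at E16. Tcf3 exceeded Tcf4 by 28.9 to 61.4 times at E18, against 49.6 to 81.7 times at E16, so Tcf4 was the minor E protein transcript in every library. The size of this ratio rests in part on exon lengths of 4039 bases for Tcf3 and 27382 for Tcf4.

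Of 9 TALE relatives of Meis, 0 passed, and the list had a median of 0.21 on the log2 scale, where all genes had 0.07. Pknox2 averaged 2.97 ± 1.78 TPM at E18 and 0.215 ± 0.0730 TPM at E16 (limma adjusted p = 0.0646). Meis3, Pbx2, Pbx3, Pbx4, Tgif1 and Tgif2 overlapped between days.

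Of 22 epithelial genes that Snail and Zeb factors are known to repress, 15 were under the filter, Esrp1 and Ovol2 were listed at 0 throughout, and 0 of the 7 tested passed. Cdh1 stood at 0.594, 0.335 and 1.15 TPM in the E18 libraries A, B and C, against 3.23, 12.9 and 5.84 TPM in the E16 libraries A, B and C (log2 fold change -2.15 ± 0.48; limma adjusted p = 0.0578). Its highest library, E16 replicate B, was also that with the most hepatocyte marker TPM, whose part was not tested. The days separated with E18 lower for 3 of the 22, Cdh1, Ocln and Marveld2, and with E18 higher for 3, Cldn7, Patj and Cdh3, against 5.74% and 15.0% of genes detected in any library. P-cadherin, Cdh3, averaged 22.2 ± 8.61 TPM at E18 and 6.59 ± 2.62 TPM at E16 (limma adjusted p = 0.0523). Esrp2, a splicing regulator of epithelia, overlapped, at 5.99 ± 2.51 and 6.42 ± 1.68 TPM on those days.

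Of 12 tested genes of the mesenchymal state, 6 rose and 0 fell, against 3.08% and 0.387% of all genes tested. The list had a median log2 fold change of 1.93. The intermediate filament gene Vim averaged 145 ± 68.9 TPM at E18 and 22.1 ± 10.5 TPM at E16 (2.66 ± 0.41; limma adjusted p = 0.0328). The matrix gene Sparc (2.70 ± 0.38), the collagen cross-linking enzyme gene Lox (2.52 ± 0.36), the receptor tyrosine kinase gene Axl (2.58 ± 0.44), Tnc (2.46 ± 0.44) and Mmp14 (1.76 ± 0.33) also rose. N-cadherin, Cdh2, averaged 10.8 ± 7.47 TPM at E18 and 4.23 ± 1.23 TPM at E16 and did not pass (limma adjusted p = 0.265). S100a4 was listed at 0 in every library, and 51.7% of its exon length is shared with another gene on the same strand. Without E18 replicate C 5 of the 6 passed, all but Mmp14. Without any one of the other libraries 0 passed, which held for all 10 related genes called here.

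Of 12 TGF-beta inputs, 2 rose and 0 fell, against 3.08% and 0.387% of all genes tested. Among those that rose was the ligand gene Tgfb2, which averaged 10.9 ± 5.29 TPM at E18 and 2.03 ± 0.526 TPM at E16 (1.90 ± 0.37; limma adjusted p = 0.0433). Tgfb1, Smad2 and Tgfbr1 overlapped between days. Of the T-cell factor genes of the Wnt pathway, Tcf7l1 rose (1.91 ± 0.38; limma adjusted p = 0.0468), while Tcf7l2 averaged 4.98 ± 1.45 TPM at E18 and 1.87 ± 1.45 TPM at E16 and did not pass (limma adjusted p = 0.179). Tcf7l1 entered the test through its E18 values alone, standing at 0.307 to 0.896 TPM at E16. Among the alternatives, Tcf7l1 was called after rescaling without hepatocyte and erythroid genes, without the intensity trend, with array weights and with voom. It was called under no other, which includes pseudocounts of 0.1 and 5, quantile normalization, median-of-ratios scaling and each fit that left out a library.

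**Figure D4:**
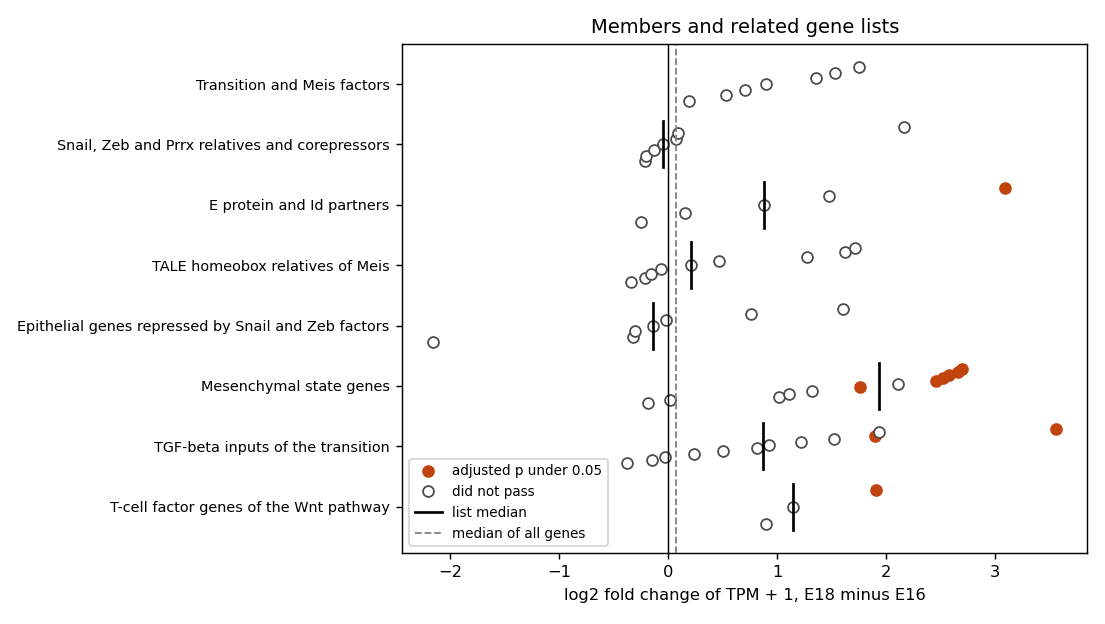
Log2 fold change of TPM + 1, E18 minus E16, of each tested member and of each tested gene in 7 related lists; filled points passed at adjusted p under 0.05, black bars are medians of the related lists, and the dashed line is the median of all genes, 0.07. No member passed, and 6 of the 10 related genes that did are mesenchymal state genes.

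The protein-coding genes most like the members over the 6 libraries were found by Pearson correlation of log2(TPM + 1) with the mean z-score of the 7 tested members. Among 9202 genes with mean TPM of at least 5 these were Col3a1, Sema6d and Mrc2 (r = 0.999 each), and Flna and Ets1 (r = 0.998 each). With 6 points that fall into 2 days this is a description of shared level differences. Col3a1 averaged 725 ± 474 TPM at E18 and 102 ± 32.8 TPM at E16, and Ets1 21.4 ± 15.7 TPM at E18 and 2.54 ± 1.06 TPM at E16. Each single member was compared in the same way with the mean of the other tested members, and r ran from 0.682 for Tcf4 to 0.991 for Meis2.

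Under other fits some members passed. With array weights limma called 6 members, all tested ones but Tcf4, while 15.7% of all genes were called higher, 8.53% lower and 24.2% in either direction. In that fit E18 replicate A and E16 replicate C had weights of 3.62 and 3.76, and the other libraries 0.484 to 0.605. With voom on reads recovered from TPM, which changes the data fitted as well as the variance model, 4 were called, namely Zeb2, Prrx1, Meis1 and Meis2, while 7.08% of all genes were called higher, 0.926% lower and 8.01% in either direction. Prrx1 and Meis2, called in both of these fits, entered them through their E18 values alone, so these counts are a description. Without the intensity trend Snai2 alone was called, while 3.56% of all genes were called higher, 0.415% lower and 3.98% in either direction.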

How the data were processed

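RNA of 6 libraries was measured, 3 at E18 and 3 at E16. Libraries were made with a stranded total RNA kit, per the labels' protocols. The authors deposited TPM per gene. HTSeq 0.5.4p3, HISAT2 2.1.0, FastQC 0.11.7, Bowtie and the build mm10 appear in the submitters' processing notes, with no step assigned to any. How TPM was computed, with which annotation release and strand setting, is not given in the sources used here.

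Symbols came from a reference table of gene identifiers covering 54409 identifiers, with 123 unnamed. Exon lengths and overlaps came from GENCODE M21. TPM multiplied by merged exon length gave whole reads, within 0.05 of a read, for 96.8% to 97.1% of values above 0. Recovered totals were 14586260 to 18280340 reads at E18, against 21128612 to 22624482 at E16, so 1 TPM over 1 kb rests on 4.41 to 6.83 reads.

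The fit held the 17824 genes that reached 1 TPM in 3 or more libraries. limma 3.58.1 (R 4.3.3) was run with an intensity trend on log2(TPM + 1), and its 2-sided p-values were Benjamini-Hochberg adjusted. Fold changes on this scale understate changes of low genes. The fit was tested on simulated data. Alternatives were other pseudocounts, filters, scalings and variance models, a hepatocyte covariate, the letter as a block, voom on recovered reads and leaving out each library. Figures used Matplotlib 3.10.9.

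The members, 7 related lists and 15 marker lists were chosen with earlier results of these data known. The text names the members, up to 6 genes with values per related list (called ones first, then by p), genes overlapping a member, and the 5 genes most like the members. Snai3, Prrx2, Cdh2 and the marker genes were named after their values were seen. Some genes of the related lists are counted but not reported here by name.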

Additional observations from a re-analysis of the deposited data

How the results depend on the processing

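The count of called genes was 618, with 549 higher and 69 lower at E18. It was 347 at a pseudocount of 5, 0 without a filter on low values, 406 with TPM of at least 5 required, 399 with quantile normalization, 4316 with array weights, 0 with the hepatocyte score as covariate and 1427 with voom on recovered reads. Leaving out single libraries gave 0 to 664: 664 without E18 replicate C, 55 without E16 replicate B and 0 without any of the others. In limma fits with 0 calls, unadjusted p lay under 0.05 for 4571 genes without a filter, 1640 with the covariate, 3195 with the letter as a block, 2892 without E18 replicate A, 2765 without E18 replicate B, 3438 without E16 replicate A and 2839 without E16 replicate C. The share of calls higher at E18 was 88.8%, 78.7% with quantile normalization and 64.8% with array weights. Quantile normalization gave all genes a median of -0.08 on the log2 scale, against 0.07. Members called, 0 as reported, numbered 6 with array weights, 4 with voom, 1 without the intensity trend and 0 under every other alternative. Related list genes called, 10 as reported, numbered 25 with array weights, 18 with voom, 0 without a filter on low values, 0 with the hepatocyte covariate, and, 8 being the count without E18 replicate C, 0 to 8 when single libraries were left out. The cause of these differences was not tested. Of the tested members, the log2 fold change of Tcf4 turned negative with quantile normalization (-0.12), array weights (-0.04) and the hepatocyte covariate (-0.02). The other 6 stayed positive under all alternatives in which they could be fitted, Snai2 between 0.67 and 1.85, Zeb1 between 0.34 and 0.59, Zeb2 between 0.54 and 0.80, Prrx1 between 0.63 and 2.85, Meis1 between 0.98 and 2.23 and Meis2 between 0.30 and 1.94. Snai2, Prrx1, Meis1 and Meis2, as reported 1.36, 1.53, 1.75 and 0.90, thus moved by over 1.5 times in fold.

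Deviations of same-lettered libraries correlated at 0.102, -0.139 and -0.117 for A, B and C. Those of different letters ran from -0.147 to 0.22. Whether equal letters share a litter or pool cannot be told from these values. With the letter as a replicate block, 0 genes, 0 members and 0 related list genes were called. Reads limit Twist1, Twist2 and the E16 values of Snai2 and Prrx1 most.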
